A study of Xenopus tropicalis with 2 samples.

Results

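The cilium genes of *Xenopus tropicalis* tail cells were described here: every gene row whose name belongs to the axonemal dyneins (dnah, dnai, dnal, dnaaf), intraflagellar transport (ift), the BBSome (bbs), radial spokes (rsph), tektins (tekt), cilia and flagella associated proteins (cfap), the tetratricopeptide genes (ttc) and a short set of single genes such as foxj1, rfx2, rfx3, daw1, iqca1, hydin, nme5, armc4, odf3 and nek5. The rule reads gene names and no measured value, but it was written with earlier results of these data known. Of 14374 gene rows, 95 matched and all 95 had at least 1 UMI (unique molecular identifier, 1 captured transcript) in a called cell, 93 in the uninjured library and 94 in the 24hpa library. By known role, 42 belonged to motile cilia, 25 were shared by motile and primary cilia (14 of intraflagellar transport, 8 of the BBSome, 3 of the transition zone), 4 were ciliary transcription factors and 24 matched by name without a settled role in cilia. A total of 87 reached 20 UMIs over both libraries. The other 8 were bbs12-like, ift172, cfap58, rfx3, dnah14, lrrc63-like, lrrc69 and tctn1.

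Both libraries held GFP-positive cells sorted from tails of the transgenic line carrying pax6:GFP, cryga:RFP and actc1:RFP. The pax6 promoter drives GFP there in neural progenitors, and the paper allows that some differentiated neurons may be included. The sorted cells also held non-neural clusters. The uninjured library came from tail tips at NF stage 41, 3 days after fertilization. The 24hpa library came from tissue regrown 24 hours after the posterior tail was amputated at that stage, so these tadpoles were a day older. Many tails were pooled for each collection and each group was 1 library, so amputation, age, tissue and library cannot be told apart, no p-value was computed, and every interval below (95%, exact) covers counting error only.

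A motile cilium is a microtubule axoneme whose outer and inner dynein arms slide neighbouring doublets, with radial spokes and a central apparatus that set the beat. Motile and primary cilia are both built by intraflagellar transport, gated at the transition zone and served by the BBSome, and Foxj1 together with Rfx factors switches on the motile set in vertebrates. In the spinal cord the progenitors that line the central canal, floor plate cells included, bear motile cilia that move the cerebrospinal fluid, and the neurons that touch this fluid keep a cilium as well.

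The libraries held 2617 uninjured and 1090 24hpa cells, with medians of 8289 and 10374.5 UMIs per cell, and the deposited neural table held 780 and 295 of them. Levels were given as CPM, UMIs of a gene or gene group per 1000000 UMIs of all genes, summed over the cells of a cluster. The cluster names were set beside markers. The 273 uninjured and 71 24hpa cells named Spinal Cord Progenitor held 575 and 646 CPM of sox2, a neural progenitor factor. Levels were similar in the uninjured floor plate (549 CPM) and in the cluster named Dopaminergic Neurons (585 and 554 CPM). The level of sox2 thus does not set the progenitors apart from these clusters. The 23 uninjured Floor Plate cells held 312 CPM of foxa2, a floor plate factor, against 22.2 CPM in the progenitors. The cluster named Dopaminergic Neurons (49 and 8 cells) held 7535 and 7291 CPM of a list of 6 markers of cerebrospinal fluid-contacting neurons, against 14.2 to 682 CPM in the remaining neural clusters of at least 20 cells. In this cluster pkd1l2 alone stood at 4509 and 3674 CPM. The paper proposed pkd1l2 and pkd2l1 as its markers from these libraries, so their level is no independent evidence. The dopaminergic name was not tested: th, slc6a3 and slc18a2 matched no gene row, and ddc stood there at 509 and 757 CPM. Free RNA, read from barcodes with at most 100 UMIs, held 488 CPM of the motile members in the uninjured library and 446 CPM in the 24hpa library. Muscle transcripts, which neural cells should lack, stood in the progenitors at 9.27% of their free RNA level in the uninjured library and at 1.99% in the 24hpa library. The libraries shared 1 cell barcode.

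The motile members were concentrated in the progenitors and the floor plate. Their 42 genes summed to 2950 CPM (2881 to 3019) in the uninjured progenitors and 4328 CPM (4213 to 4446) in the 24hpa progenitors. The uninjured floor plate stood at 3110 CPM (2885 to 3348), an interval that holds the value of the progenitors. Differentiating neurons followed with 979 and 590 CPM, and the cluster named Dopaminergic Neurons with 1151 and 1187 CPM. Interneurons and the 3 motor neuron clusters stood between 226 and 356 CPM, with intervals that mostly overlapped one another. The cells outside the neural table stood at 123 CPM in the uninjured and 105 CPM in the 24hpa library. Free RNA at the share of the muscle transcripts would carry 40.6 to 64.9 CPM of motile members in uninjured interneurons and motor neurons. The part of free RNA in their levels was not tested.

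**Figure D1:**
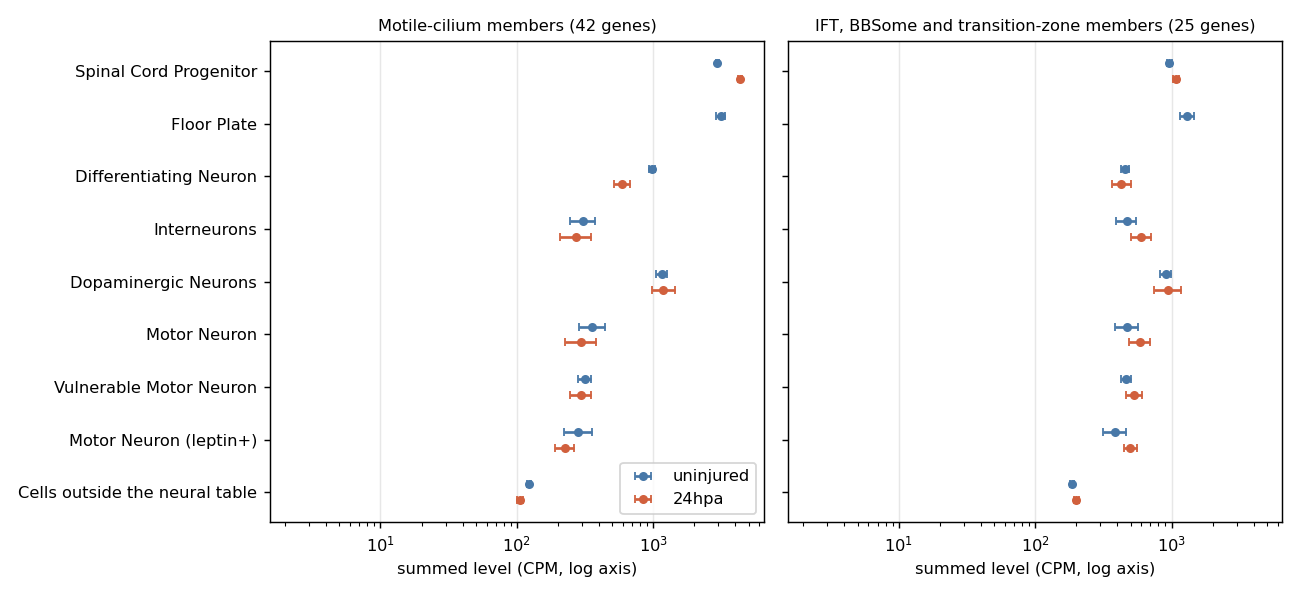
Summed level (CPM, log axis) of the 42 motile members, left, and of the 25 intraflagellar transport, BBSome and transition zone members, right, in each neural cluster and in the cells outside the neural table, uninjured in blue and 24hpa in orange; bars are exact 95% Poisson intervals, and the single 24hpa floor plate cell is not drawn. The motile sum spans 226 to 4328 CPM over the neural clusters, the shared sum 384 to 1305 CPM.

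The shared machinery was spread more evenly. Its 25 genes summed to 961 and 1075 CPM in the progenitors, to 1305 CPM (1160 to 1462) in the uninjured floor plate and to 907 and 938 CPM in the Dopaminergic Neurons cluster. The remaining neurons held 384 to 598 CPM, and 186 and 201 CPM were found in the cells outside the neural table.

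Gene by gene, 39 motile members had at least 20 UMIs in the uninjured neural clusters of at least 20 cells. Floor plate held the highest level of 25 of them and the progenitors of 13, and the exception was cfap97, highest in the cluster named Motor Neuron. At 24hpa, floor plate (1 cell) and Dopaminergic Neurons (8 cells) fell under 20 cells and were not ranked. There 32 of 35 were highest in the progenitors. Of the shared members with 20 UMIs, 11 of 21 were highest in the uninjured floor plate, 6 in Dopaminergic Neurons and 2 in progenitors. At 24hpa, again without floor plate and Dopaminergic Neurons in the ranking, 14 of 21 were highest in progenitors. The counts of the libraries are thus not comparable. In the table of all cells the progenitors held the highest level of 12 of 22 shared members in the uninjured and 16 of 22 in the 24hpa library. That table has no separate floor plate cluster, and its Spinal Cord Progenitor cluster held 297 and 73 cells. Its counts are thus not comparable with those of the neural table. The 24hpa Dopaminergic Neuron cluster (8 cells) was not ranked there either. The share of all genes highest in each cluster was not computed, so these counts have no background beside them. The uninjured floor plate held 227663 UMIs of all genes against 2390677 in the progenitors, so its single-gene levels are less exact. The clusters were built from these same transcripts, so these orders are descriptions.

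**Figure D2:**
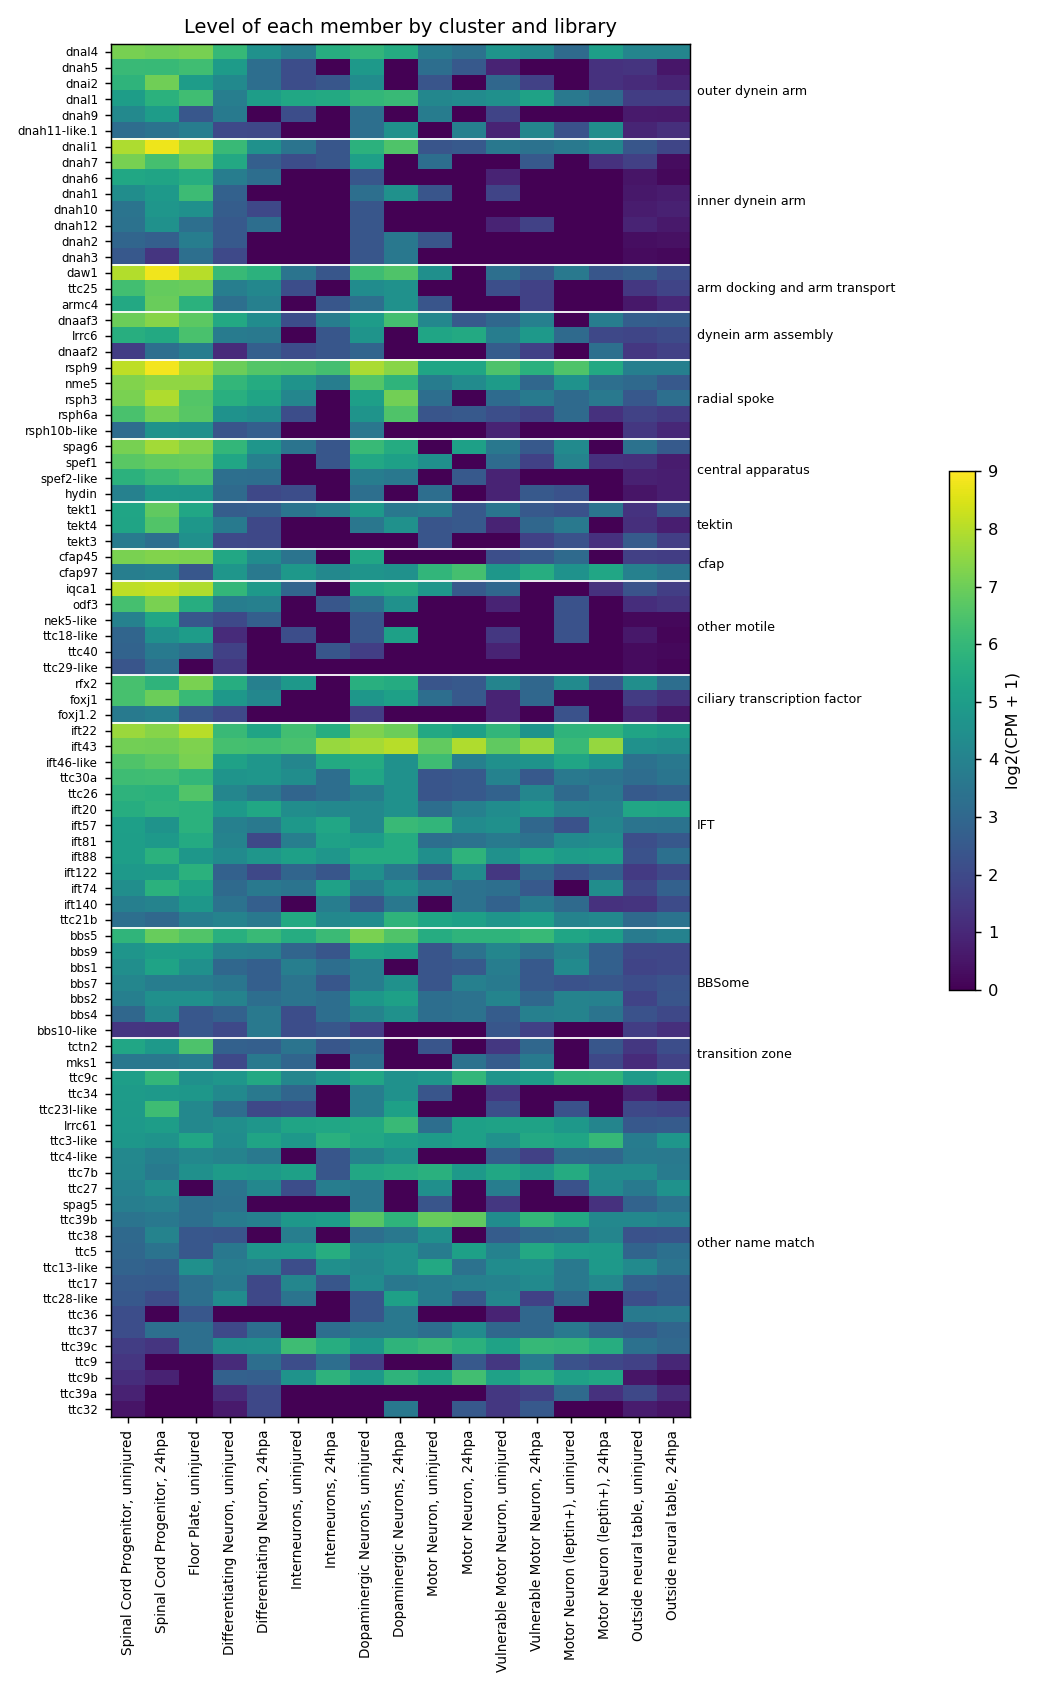
Level of each of the 87 members with at least 20 UMIs, as log2(CPM + 1) by colour, in each neural cluster and in the cells outside the neural table, with a column for each library and rows grouped by role. Most motile rows are brightest in the progenitor and floor plate columns and darker elsewhere, whereas ift22, ift43 and bbs5 are bright in most neural columns.

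Among the regulators, foxj1, the forkhead factor that drives the motile programme, stood at 82.8 CPM in the uninjured and 125 CPM in the 24hpa progenitors. It stood at 65.9 CPM in the uninjured floor plate, 27.1 and 17 CPM in differentiating neurons and 26.2 and 33.9 CPM in Dopaminergic Neurons. It had no UMI in interneurons or in the cluster named Motor Neuron (leptin+) of either library, with upper limits of 5.34 to 15.9 CPM. The second copy, foxj1.2, was lower, with 12.1 and 13.7 CPM in progenitors, and reads of the copies may have been split between them. The level of rfx2, a ciliary RFX factor, was 145 CPM (99.8 to 204) in the uninjured floor plate and 83.2 CPM (72.1 to 95.6) in the progenitors, intervals that did not overlap. Outside the neural table rfx2 kept 20.7 and 8.50 CPM, and only 46.9% of its UMIs lay in neural cells, against 88.8% for foxj1. rfx3 had 13 UMIs in all.

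The highest levels in progenitors belonged to structural parts. rsph9, a radial spoke head protein, stood at 274 CPM in the uninjured and 462 CPM in the 24hpa progenitors. iqca1, an AAA protein of the nexin-dynein regulatory complex, stood at 274 and 294 CPM. daw1, which helps dynein arms into the cilium, stood at 246 and 443 CPM, and dnali1, the inner arm light intermediate chain, at 239 and 434 CPM. daw1 and iqca1 were proposed as progenitor markers from these libraries, so their place here is no independent evidence. They were followed by ift22, nme5, dnal4, rsph3, cfap45 and spag6, at 141 to 198 CPM in the uninjured progenitors. In the uninjured differentiating neurons, interneurons and motor neurons rsph9 stood at 38.1 to 125 CPM and ift22, a small GTPase of intraflagellar transport, at 42.4 to 76.9 CPM, where daw1 stood at 8.68 to 65.4 CPM. Heavy chains were lower: dnah7 had 143 CPM, dnah5 67.3 CPM and dnah6 39.7 CPM in the uninjured progenitors, and dnah1, dnah9, dnah2, dnah10 and dnah12 had 6.69 to 20.1 CPM. These are 3′ tag counts, and the order of levels between genes also depends on how well each 3′ end was annotated.

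Individual progenitors differed widely. The motile sum per cell ran from 124 to 10426 CPM in the uninjured progenitors, with a median of 2753 CPM and 10th and 90th percentiles of 1171 and 5406 CPM. In the 71 24hpa progenitors it ran from 1841 to 9078 CPM, with a median of 4258 CPM and 10th and 90th percentiles of 2499 and 6554 CPM. The ranges overlapped, but the low end of the uninjured cluster had no counterpart at 24hpa. At least 10 different motile genes were detected in 76.6% of uninjured and 98.6% of 24hpa progenitors. The 24hpa cells were deeper (a median of 14090 against 7739 UMIs). When every cell was thinned to 2600 UMIs, which left out none, the median was 5.99 motile genes per uninjured and 8.30 per 24hpa progenitor.

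**Figure D3:**
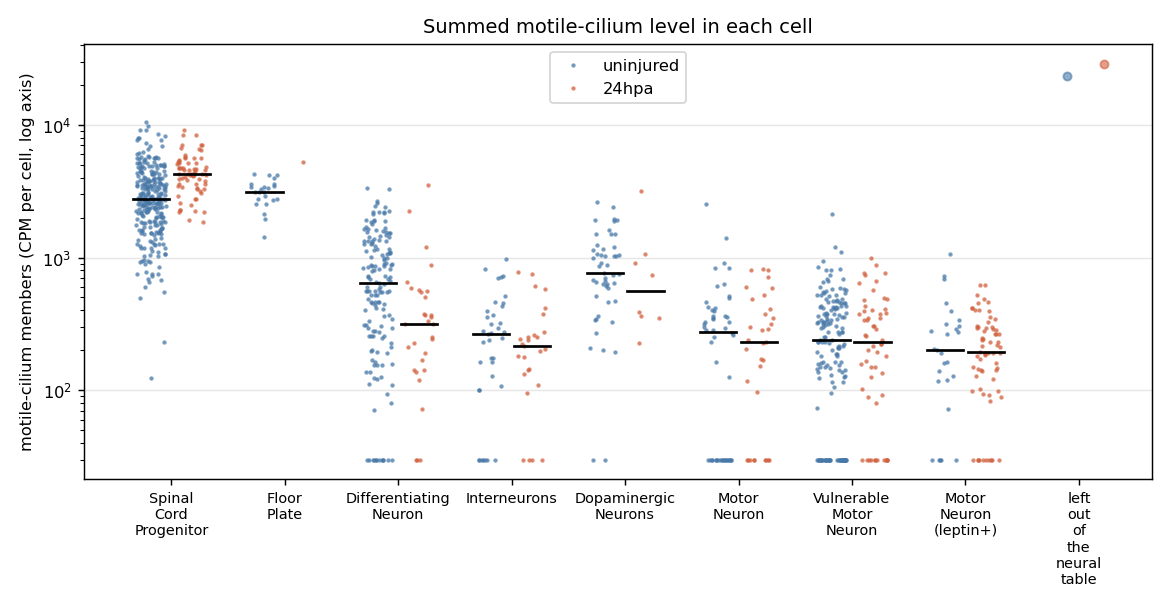
Summed motile level in each cell (CPM, log axis) by neural cluster, uninjured in blue and 24hpa in orange; 1 point per cell, the black line is the median, and cells with no motile UMI are drawn at the bottom. The medians of the progenitors are 2753 and 4258 CPM, and the 2 cells left out of the neural table stand at 23515 and 28849 CPM, above every cell of the clusters.

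The highest motile levels of the series lay in 2 cells that the table of all cells names Spinal Cord Progenitor but the neural table leaves out, 1 in each library. They were singled out after their values were seen. The uninjured cell had 150 motile UMIs among 6379 (23515 CPM) with 31 of 42 motile genes detected, and the 24hpa cell 95 among 3293 (28849 CPM) with 28 of 42. The highest level of any cell of the neural table was 10426 CPM. Neither cell had a UMI of the 7 progenitor markers, where a cell of that depth at the level of the progenitor cluster would hold 23.7 in the uninjured and 9.24 in the 24hpa library, and neither had one of sox2 or pax6. rsph9 had 26 and 6 UMIs in the pair, tekt3 10 and 9, odf3 9 and 3, and foxj1 3 and 0. The tektin tekt3, which lies inside doublet microtubules, stood at 12.5 and 8.88 CPM in the progenitor cluster of the neural table. The markers of multiciliated cells that matched a gene row (3 of 8 in the list) had no UMI in either cell. These markers were also low in the progenitor cluster. No cluster is named for multiciliated cells, so the level of these markers in such cells is unknown and their absence here cannot decide. These cells were given no name.

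A few members were picked out to set the uninjured floor plate beside the progenitors. tctn2, a transition zone protein that the Hedgehog pathway needs in mice, stood at 87.8 CPM (53.7 to 136) in the floor plate and at 38.9 CPM (31.4 to 47.7) in the progenitors. dnal1, an outer arm light chain, stood at 74.7 CPM (43.5 to 120) against 31.4 CPM (24.7 to 39.3). dnah1, an inner arm heavy chain singled out after its values were seen, stood at 70.3 CPM (40.2 to 114) against 20.1 CPM (14.8 to 26.6). The intervals of these 3 did not overlap. spef2-like, of the central apparatus, stood at 83.5 CPM (50.2 to 130) against 53.5 CPM (44.7 to 63.7), and these intervals overlapped. The floor plate values rest on 16 to 20 UMIs each. tctn2 and spef2-like were named for their high level in the floor plate and dnal1 for its level in Dopaminergic Neurons. Intervals apart in members picked this way are descriptions, and the share of all genes with intervals apart was not computed.

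The cluster named Dopaminergic Neurons held more motile transcripts than the other mature neurons in both libraries, with 1151 CPM (1055 to 1254) and 1187 CPM (971 to 1437). Its leading members included some of each class. rsph9 stood there at 229 CPM (188 to 278) in the uninjured library, ift43, of the IFT-A complex, at 221 CPM (180 to 268), and bbs5, a BBSome subunit, at 144 CPM (112 to 183). The uninjured progenitors held 274 CPM of rsph9, within that interval, and 136 CPM of ift43 and 58.6 CPM of bbs5, below theirs. dnal1 was at 61.2 CPM and ttc39b, with no settled role in cilia, at 100.5 CPM (73.6 to 134), whereas daw1 and foxj1 were at 72.1 and 26.2 CPM. Muscle transcripts stood higher in this cluster than in the progenitors (14.6% of their free RNA level in the uninjured library), a share that would carry 71.2 CPM of motile members. The 24hpa values rest on 8 cells.

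Within the progenitors, the motile members stood higher at 24hpa. The sum of 2950 CPM against 4328 CPM gave a log2 ratio of 0.55 (0.50 to 0.60), where the median of all 7573 genes with 20 UMIs was -0.01. Of the 38 motile members with 20 UMIs in progenitors, 10 were at least 2-fold higher at 24hpa and 0 at least 2-fold lower, with a median of 0.71. Over all genes 6.27% were at least 2-fold higher and 9.64% at least 2-fold lower. The interval lay above 0 for 21 of the 38 and below 0 for 1, against 17.7% of all genes in each direction. Of all 75 members with 20 UMIs, 15 were at least 2-fold higher and 0 lower. The difference was smaller for the shared members. Their sum gave 0.16 (0.06 to 0.26), 3 of 21 were at least 2-fold higher and the median was 0.10.

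Single genes with large ratios came from several roles. tekt1 stood at 38.1 CPM in the uninjured and 111 CPM in the 24hpa progenitors (log2 ratio 1.54, 1.15 to 1.94), and tekt4 at 36.8 and 93.6 CPM (1.35, 0.93 to 1.76), while tekt3, at 12.5 and 8.88 CPM, gave -0.50 (-1.64 to 0.54). armc4, of the docking complex that seats outer arms, stood at 42.7 and 123 CPM (1.53, 1.16 to 1.91), and daw1 gave 0.85 (0.68 to 1.02). The largest ratio was that of ttc18-like, from 16 and 27 UMIs (1.70, 0.76 to 2.69). rsph10b-like of the radial spokes gave 1.48 (0.61 to 2.38) and nek5-like, a NIMA-family kinase, 1.43 (0.78 to 2.10).

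The arms themselves were split. dnai2, an outer arm intermediate chain, stood at 56.9 and 132 CPM (1.22, 0.88 to 1.56), and dnali1 gave 0.86 (0.69 to 1.03), while dnah5 (-0.04) and dnal4 (-0.12) had intervals that held 0. The radial spoke genes rsph9, rsph3 and rsph6a gave 0.70 to 0.75, spag6 of the central apparatus 0.62 (0.38 to 0.85) and hydin 0.86 (0.13 to 1.59). nme5 at 0.21 (-0.03 to 0.45), cfap45 at 0.09 (-0.17 to 0.35) and iqca1 at 0.10 (-0.09 to 0.29) had intervals that held 0. By summed level, the tektins gave 1.29 (1.02 to 1.55), arm docking 0.90, radial spokes 0.64, central apparatus 0.46, inner arms 0.42 and outer arms 0.38. The BBSome gave 0.75 (0.52 to 0.97), with bbs5 at 58.6 and 119 CPM, whereas intraflagellar transport gave 0.05 (-0.06 to 0.16).

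**Figure D4:**
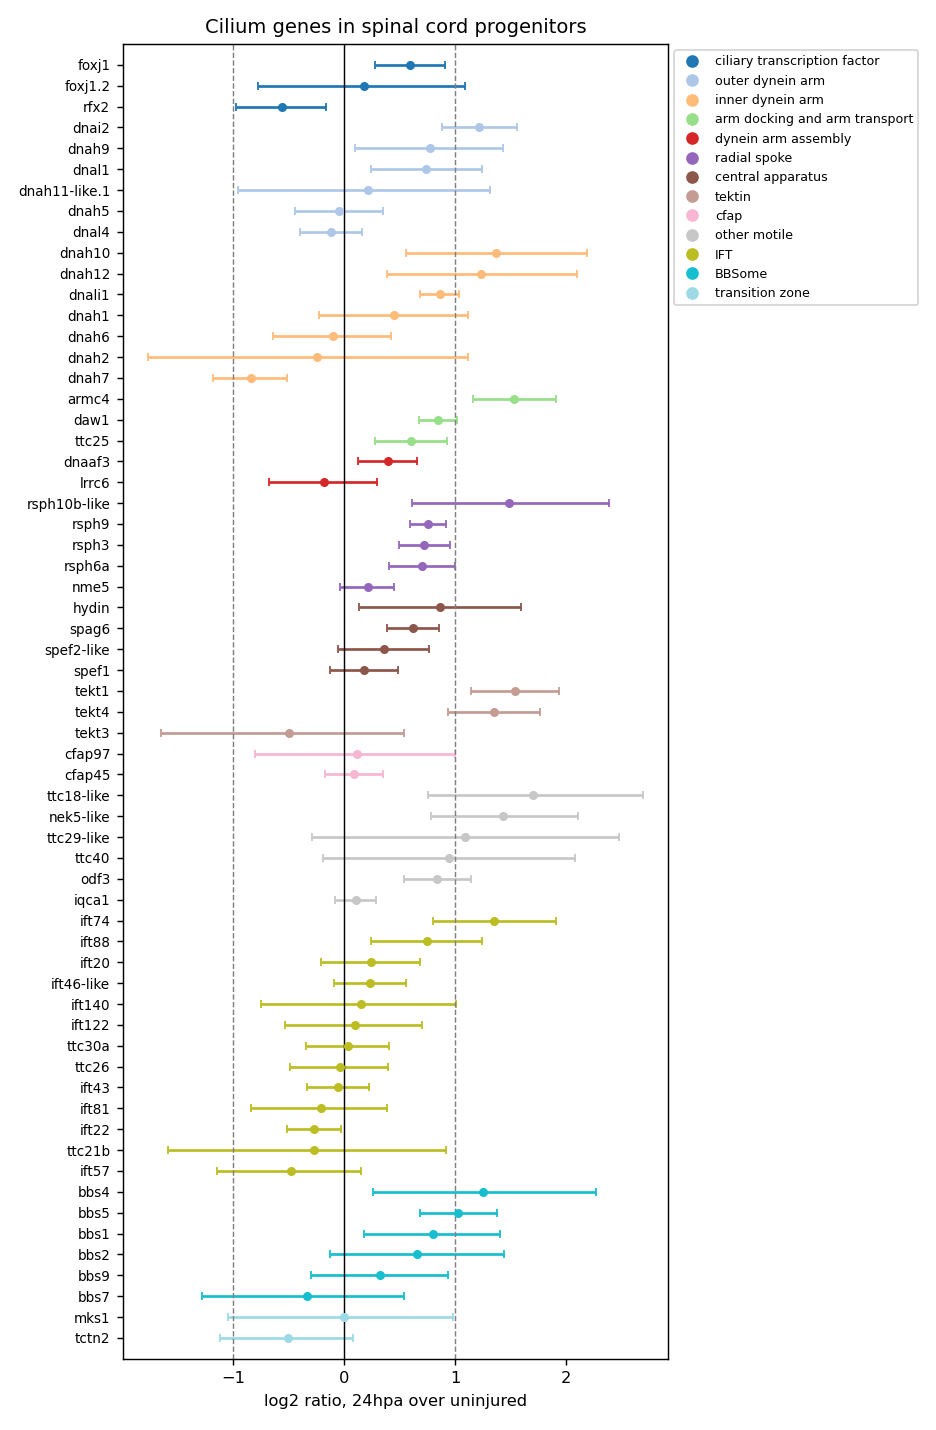
Log2 ratio of 24hpa over uninjured level in spinal cord progenitors for each regulator, motile and shared member with at least 20 UMIs, coloured by role; bars are exact 95% intervals and the dashed lines mark 2-fold. Most motile members lie right of 0, with tekt1 at 1.54 and armc4 at 1.53, and dnah7 at -0.84 and rfx2 at -0.56 lie to the left.

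A few members stood lower at 24hpa in the progenitors. dnah7, an inner arm heavy chain, stood at 143 CPM in the uninjured and 79.9 CPM in the 24hpa progenitors (-0.84, -1.18 to -0.51). rfx2 stood at 83.2 and 56.5 CPM (-0.56, -0.97 to -0.16), while foxj1 was higher at 24hpa (0.59, 0.28 to 0.91). ift22 gave -0.27 (-0.52 to -0.03). tctn2, ttc7b and tekt3 each gave -0.50 with intervals that held 0. In the neural table as a whole dnah7 and rfx2 stood at 32.1 and 26.3 CPM at 24hpa against 68.5 and 54.7 CPM uninjured, 2-fold lower or more.

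Other transcripts differed between the progenitors of the libraries as well. Muscle markers summed to 2233 CPM uninjured and 590 CPM at 24hpa (5 of 6 markers matched), markers of differentiating neurons to 335 and 96.8 CPM (6 of 6), markers of neurons to 456 and 291 CPM (6 of 6) and markers of progenitors to 3710 and 2804 CPM (7 of 9). Their part in the higher motile sum was not tested. With free RNA taken off both libraries the log2 ratio was 0.46. In the uninjured floor plate and progenitors the markers of multiciliated cells (3 of 8 matched) summed to 43.9 and 29.3 CPM. Their 24hpa level is not given here, so these sums do not compare the libraries.

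By deposited cell cycle phase, the motile sum of the progenitors was higher at 24hpa in S and G2M, with intervals apart, but not clearly in G1. In S phase (178 and 44 cells) it was 2908 CPM (2825 to 2993) uninjured and 4101 CPM (3958 to 4249) at 24hpa, and in G2M (75 and 17 cells) 2770 CPM (2646 to 2897) and 4661 CPM (4444 to 4885). In G1 (20 and 10 cells) the values were 4468 CPM (4105 to 4856) and 4746 CPM (4351 to 5167), with overlapping intervals. Within the uninjured library, G1 progenitors thus stood above S and G2M progenitors. At 24hpa the interval of G1 lay above that of S and overlapped that of G2M. dnah7 had the same order in the uninjured library, with 265 CPM in G1, 143 in S and 122 in G2M, and was at 71.4, 75.6 and 91.1 CPM at 24hpa. spag5, which matches by name but serves the mitotic spindle, had 0 UMIs in G1 in both libraries and 24.9 and 24.1 CPM in G2M. In the uninjured library the upper limit in G1 was 29.6 CPM, within the G2M interval (14.5 to 39.9). The level in S was 9.47 CPM (5.30 to 15.6). The absence from the uninjured G1 cells thus does not set G1 apart from G2M. The phases were scored from the transcripts of the same cells, and G1 and the 24hpa G2M value rest on few.

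**Figure D5:**
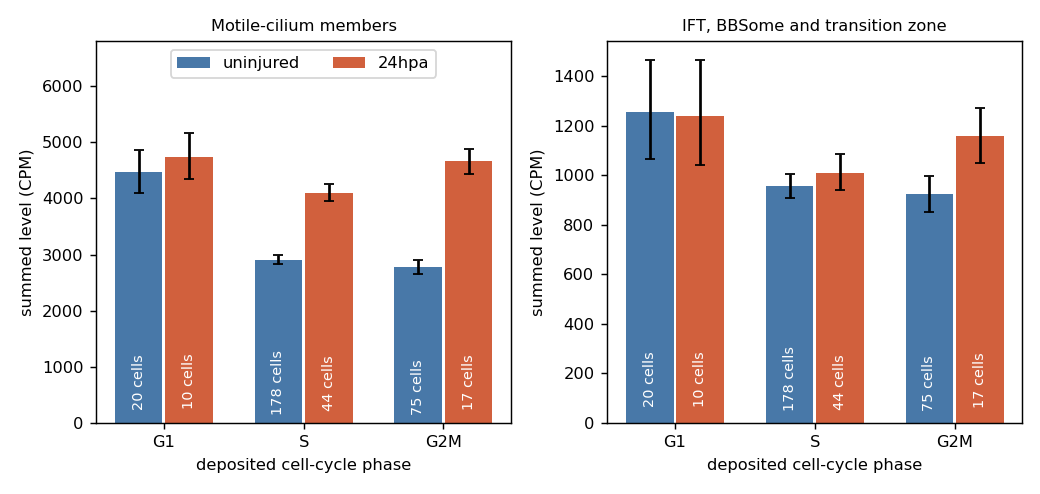
Summed level (CPM) of the motile members, left, and of the intraflagellar transport, BBSome and transition zone members, right, in spinal cord progenitors by deposited cell-cycle phase, uninjured in blue and 24hpa in orange, with exact 95% Poisson intervals and the number of cells in each bar. Motile bars of S and G2M cells are 2908 and 2770 CPM uninjured against 4101 and 4661 CPM at 24hpa, and the G1 bars overlap.

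The share of progenitors with a UMI followed the depth of the cells as well as the levels. foxj1 had a UMI in 39.9% (34.1 to 46.0) of the 273 uninjured progenitors and in 83.1% (72.3 to 91.0) of the 71 at 24hpa, which became 17.8% and 29.7% after thinning to 2600 UMIs. daw1 went from 79.1% and 97.2% to 46.5% and 67.2%, and iqca1 from 79.5% and 93% to 48.7% and 53.4%. For dnah7 the shares were 59.7% and 62.0% before thinning and 30.6% and 19.6% after it, the order of its CPM. In skeletal muscle cells, which should lack these genes (medians of 9553 and 16552 UMIs), foxj1 was found in 2.18% and 1.69%, daw1 in 3.16% and 3.39% and iqca1 in 0.971% and 6.78%.

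Cilium genes outside the name rule were taken from 4 lists. Of 45 other axoneme genes 29 matched, and their sum in progenitors was 2413 CPM uninjured and 3059 CPM at 24hpa (0.34, 0.28 to 0.40). Of the 26 with 20 UMIs, 2 were at least 2-fold higher and 0 lower, where 6.27% of all genes were higher and 9.64% lower, so this count and the single genes called in the other lists are near those shares. Among them was ccdc39, which with ccdc40 sets the axonemal repeat, at 41.8 and 88.8 CPM. ccdc40 itself stood at 344 and 357 CPM (0.05, -0.12 to 0.22). The other transport genes (18 of 22 matched) gave 0.16 (0.07 to 0.24), with 1 higher, arl6, the GTPase that recruits the BBSome, at 11.3 and 34.7 CPM, and 1 lower, unc119b, at 61.9 and 25 CPM. The other transition zone and basal body genes (17 of 23 matched) gave 0.06 (-0.09 to 0.21), with 1 of 16 higher, rpgrip1l, at 7.53 and 15.3 CPM, and 1 lower, ofd1, at 30.5 and 13.7 CPM. The multiciliogenesis genes (9 of 16 matched) gave 0.01 (-0.22 to 0.23), with 0 of 6 higher and 1 lower, ccno, which drives centriole amplification, at 23.4 and 7.26 CPM.

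Among the neural clusters other than progenitors and floor plate, only the differentiating neurons had motile sums with the intervals of the libraries apart. They made up 155 of 484 such neural cells in the uninjured library and 31 of 223 at 24hpa. In the pooled neural cells that were neither progenitors nor floor plate (484 and 223 cells) the motile sum was lower at 24hpa. It was 682 CPM uninjured and 360 CPM at 24hpa (-0.92, -1.04 to -0.80). Of the 30 motile members with 20 UMIs there, 17 were at least 2-fold lower and 1 higher, with a median of -1.08, where 12.3% of all genes were at least 2-fold lower and 11.1% higher with a median of 0.11. The shared members gave 0.08 (-0.03 to 0.19), with 0 of 21 beyond 2-fold in either direction. Among the motile roles the central apparatus (-1.81) and the inner arms (-1.66) had the lowest ratios. dnah7 stood at 21.7 and 3.00 CPM, dnah5 at 16.6 and 2.50 CPM and cfap45 at 23.6 and 4.50 CPM.

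Within single clusters the intervals of the libraries were apart in the differentiating neurons. Their motile sum was 979 CPM in 155 uninjured and 590 CPM in 31 24hpa cells (-0.73, -0.95 to -0.52), with 12 of 24 motile members at least 2-fold lower and 1 higher, against 14.5% and 7.45% of all genes in this cluster. The median cell stood at 638 CPM uninjured and 316 CPM at 24hpa. Their progenitor markers summed to 2091 and 729 CPM and their neuron markers to 3755 and 6408 CPM. Progenitor markers in all neural cells that were neither progenitors nor floor plate summed to 1148 and 266 CPM. Differentiating neurons made up 155 of 484 such cells in the uninjured library and 31 of 223 at 24hpa. The part of these markers and numbers in the lower motile sum was not tested. In interneurons (304 and 271 CPM) and in the clusters named Motor Neuron (356 and 295 CPM), Vulnerable Motor Neuron (313 and 295 CPM) and Motor Neuron (leptin+) (281 and 226 CPM) the intervals of the libraries overlapped. Those of the Dopaminergic Neurons cluster (1151 and 1187 CPM) overlapped as well.

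A few members stood higher there at 24hpa. dnah11-like.1, an outer arm heavy chain by name, stood at 0.868 CPM in uninjured and 16.5 CPM in 24hpa vulnerable motor neurons, from 1 and 7 UMIs, and at 3.8 and 20.3 CPM in the leptin+ motor neurons, from 1 and 14. Over the neural cells outside progenitors and floor plate it gave 2.33 (1.28 to 3.49). ift43, singled out after its values were seen, was higher at 24hpa in the 4 mature clusters, with 83.5 and 194 CPM in interneurons, 114 and 243 CPM in the Motor Neuron cluster, 112 and 198 CPM in vulnerable and 68.4 and 188 CPM in leptin+ motor neurons. In progenitors its interval held 0 (136 and 131 CPM; -0.05, -0.33 to 0.22). ttc9b, of the tetratricopeptide genes, gave 1.02 (0.58 to 1.47) in these cells.

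For 10 of the 65 members with 20 UMIs in both sets of cells, the interval lay above 0 in progenitors and below 0 in the remaining neural cells, against 2.24% of 7155 genes, and for 0 the reverse, against 1.79%. These were daw1, dnah9, dnai2, dnali1, foxj1, hydin, rsph3, rsph9, spag6 and ttc23l-like. In the neural table as a whole the motile sum was 1570 CPM uninjured and 1911 CPM at 24hpa (0.28), and it was -0.19 when each cell counted equally. Of 84 members 9 were at least 2-fold higher and 4 lower, against 8.76% and 8.88% of all genes. Without the leptin+ motor neurons the motile ratio was 0.54 and the counts were 16 and 2, and the shares over all genes were not computed for that set. The 9 were armc4, ttc9, nek5-like, dnah11-like.1, tekt1, ift74, dnaaf2, ttc18-like and tekt4, and the 4 were ttc28-like, dnah3, dnah7 and rfx2.

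The members without a settled role in cilia had their highest levels spread over several clusters. Of those with 20 UMIs in the neural clusters, the progenitors held the highest level of 3 of 18 in the uninjured library and 4 of 16 at 24hpa. The share of all genes highest in progenitors was not computed, so these counts have no background beside them. ttc23l-like stood at 28.9 and 73.4 CPM in progenitors, above its level in the neural cells that were neither progenitors nor floor plate. Others were placed elsewhere. ttc9b was nearly all neural (94.7% of its UMIs), with 34.7 and 54.3 CPM in vulnerable motor neurons and 1.25 and 0.807 CPM in progenitors. ttc39c stood at 73.5 and 47.3 CPM in interneurons and at 2.09 and 1.61 CPM in progenitors. ttc39b was highest in the Motor Neuron cluster at 119 and 109 CPM, and in goblet cells, which secrete mucus, it stood at 102 and 74.3 CPM. ttc36 stood at 203 CPM in 48 uninjured and 104 CPM in 32 24hpa mesenchyme cells, over both libraries 25.8 times its level in all other cells. Its level was also above that of other cells in Myotome (34.6 CPM, 4.93 times) and Satellite Cells/Differentiating Myotome (19.6 CPM, 2.29 times). ttc28-like stood at 20.02 and 2.84 CPM in differentiating neurons. Among motile members, rsph10b-like stood at 11.1 CPM in dermomyotome over both libraries, 5.08 times the other cells, and cfap97 at 23.9 CPM in skeletal muscle, 1.68 times. Set against all other cells, the most restricted members were nek5-like (72.6 times) and odf3 (58.7 times) in the progenitors of the table of all cells.

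Outside the neural clusters the motile sum lay between 36.3 and 508 CPM, with the top value in 24hpa cells named Bipotent Progenitor (268 CPM uninjured). In Satellite Cells/Differentiating Myotome it was 260 CPM uninjured and 64.6 CPM at 24hpa, and in skeletal muscle 77.4 and 94.7 CPM. All these sums but that of the 24hpa Bipotent Progenitor cells lay below the free RNA of their library (488 and 446 CPM). Cells named ROC held 110 and 119 CPM.

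Among genes outside the name rule with at least 100 UMIs, those whose log2(CPM + 5) followed that of the motile sum most closely, over 36 points that each stood for a cluster of at least 20 cells in 1 library, were ccdc40 (Pearson r = 0.95), meig1, a partner in sperm tail assembly in mice (0.94), lrrc23, of the radial spokes (0.93), efcab2, of the nexin-dynein regulatory complex (0.93), and LOC100158544 (0.93). They were followed by efcab10-like, LOC100127543, dydc2, LOC100490937 and LOC100490646 at 0.92. ccdc40, meig1 and lrrc23 were already on the list of other axoneme genes. The points share 2 libraries and differ in depth, so r is a description. Among the members, r was highest for nme5, dnali1, daw1, rsph9 and spef1, which are themselves terms of the sum, and lowest for ttc36 (-0.15), which is not.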

How the data were processed

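Single GFP-positive tail cells were captured with the 10x 3′ v2 chemistry, and the deposited files held UMI counts per gene and barcode that the authors made with Cell Ranger. The processing notes name the zebrafish build GRCz11, but the gene identifiers are *Xenopus* models, so the build behind the counts is not given in the sources used here. Cells, cluster names and phases came from the 2 deposited cell tables, of which 30 further columns were not used. Of the 95 member names, 79 matched a RefSeq symbol as written and 93 without the ending "-like"; no sequence was used.

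Counts were summed over the cells of a cluster and library and given as CPM, UMIs per 1000000 UMIs, with exact 95% Poisson intervals. Ratios of 24hpa over uninjured CPM carry exact conditional intervals. Where 1 library had 0 UMIs the ratio was a bound set with 3 UMIs, and none was given when both had 3 or fewer. A gene was counted when it had at least 20 UMIs over both libraries and differed at least 2-fold. UMI counts are molecules, and intervals and limits cover counting error only. Library totals were 48622597 and 32798976 UMIs. Scrublet marked 8 of 2617 and 4 of 1090 cells (0.306% and 0.367%), too few to be useful, so no cell was removed. Leaving out the highest scores and taking off free RNA were alternatives chosen after seeing the data.

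The named genes were foxj1, rfx2, rfx3, daw1, iqca1, hydin, spag6 and nme5, the 10 members highest in progenitors, the 5 highest and 5 lowest ratios among members with 20 UMIs in neural cells and in progenitors, and in each other cluster the 2 members with 20 UMIs that were highest relative to all other cells; every other member given with a value was chosen after its values were seen. The members and lists were chosen with earlier results of these data known. Python 3.11.15, numpy 2.4.6, scipy 1.17.1, pandas 2.3.3, scanpy 1.11.5, matplotlib 3.10.9 and, for one scaling, edgeR 4.0.16 in R 4.3.3 were used, and the interval calculations were tested on simulated data. Alternatives covered the scaling, the minimum of UMIs, the fold, the weighting of cells, doublets, the minimum of cells per cluster, thinning to 2600 UMIs and leaving out the leptin+ motor neurons. Values of 1 gene of the list of other axoneme genes are not reported here.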

Additional observations from a re-analysis of the deposited data

Results flagged for a closer look

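For 10 members the ratio of 24hpa over uninjured level had an interval above 0 in the spinal cord progenitors and below 0 in the neural cells that were neither progenitors nor floor plate. Each group was 1 library, so the difference between these sets of cells was not tested, and over all genes 2.24% showed the pattern. The makeup of the other neural cells also differed, with 155 differentiating neurons among 484 cells uninjured and 31 among 223 at 24hpa. The difference of log2 ratios was 3.24 for dnai2, an outer arm intermediate chain, with 56.9 and 132 CPM in progenitors and 12.2 and 3.00 CPM in the others. dnah9, an outer arm heavy chain, had 7.55 CPM in the uninjured and 0 UMIs in the 24hpa others, so its difference of 3.10 is a lower bound. ttc23l-like differed by 3.01, with 6.33 and 2 CPM in the others, and hydin, of the central apparatus, by 2.70, with 5.36 and 1.5 CPM. The difference was 2.33 for spag6, 2.13 for daw1, 2.09 for dnali1 and 1.79 for foxj1. The radial spoke genes differed least, rsph9 by 1.65 and rsph3 by 1.32.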

How the results depend on the processing

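In the neural table as a whole the values depended on how cells were weighted and scaled. The summed motile ratio (0.28) was 0.18 with TMM scaling, 0.54 without the leptin+ motor neurons, 0.21 with free RNA taken off and -0.19 as the mean of per-cell CPM. The shared ratio (0.10) was -0.0083 with TMM, 0.20 without the leptin+ motor neurons and -0.031 as the per-cell mean. The per-cell mean also turned foxj1 (-0.079), daw1 (-0.0054), rsph9 (-0.19) and odf3 (-0.034) below 0. Members higher there (9) became 25 at 1.5-fold and 16 without the leptin+ motor neurons, and members lower (4) became 2 without those neurons and 2 without the highest Scrublet scores. In progenitors the motile ratio (0.55) was 0.46 with free RNA taken off, members higher (15) became 32 at 1.5-fold, and members lower (0) became 2 with no minimum and 1 at 1.5-fold. The shares of all genes called under these alternatives were not computed, so these counts have no background beside them. Thinning to 2600 UMIs gave foxj1 in 17.8% and 29.7%, daw1 in 46.5% and 67.2% and iqca1 in 48.7% and 53.4% of uninjured and 24hpa progenitors. The causes were not tested. Of 405 values of named members under alternatives, 386 moved by less than their counting error. Leaving out Scrublet doublets took 0 progenitors and 2 neural cells from each library, and TMM shifted progenitor log2 ratios by only -0.015. These settings could hardly move the progenitor values, so the count of 386 includes values nearly fixed in advance.

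No paired analysis was possible because each group was 1 library. No replicate was left out for the same reason, and the spread between animals is unknown. Genes with under 20 UMIs carry wide intervals, and the 24hpa floor plate was 1 cell.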
